A study of Mus musculus with 6 samples.

Results

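The MAP kinase cascade genes are the mouse protein-coding genes with the family symbols Map4k, Map3k, Map2k, Mapk or Mapkapk followed by a number, together with Tab1, Tab2 and Tab3. They were chosen by symbol from the GENCODE annotation of GRCm38 and not by any measured value. That gave 49 genes of 55263 with counted transcripts, of which 21987 were protein-coding. Of the 49 genes, 38 passed the filter on low counts and were tested.

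RNA of bone marrow-derived macrophages, primary mouse cells differentiated from marrow in culture, was sequenced in 3 groups of 2 libraries. The series concerns a hyaluronic acid nanomedicine in a mouse model of psoriasis. The groups were macrophages given LPS + HACA, macrophages given LPS, and control macrophages, which the labels call wild type. LPS, lipopolysaccharide, is the bacterial outer membrane glycolipid that Toll-like receptor 4 detects. What HACA stands for, its dose and the time of exposure are absent from the labels, and no group received HACA without LPS. Nothing in the labels says that the 2 libraries of a group came from separate animals or cultures, so each p-value reflects spread among these libraries alone, and that spread may be technical.

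MAP kinase cascades are relays of protein kinases. A MAP4K or another input activates a MAP3K, which phosphorylates a MAP2K, which phosphorylates a MAP kinase of the ERK, JNK or p38 type. MAP kinases then act on transcription factors and on the MAPKAP kinases, and in macrophages they help to control cytokine transcription and the stability of cytokine messenger RNA after Toll-like receptor signalling. Counts of RNA give no measure of the phosphorylation through which these kinases are switched on.

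The libraries held 12529874 to 15379496 counts over all transcripts. The 49 genes took 0.388% and 0.388% of the counts in LPS+HACA libraries, 0.490% and 0.491% in LPS libraries, and 0.260% and 0.269% in control libraries. All 10 macrophage markers were counted in every library, although Adgre1, which encodes the F4/80 antigen, was at 0.394 to 0.674 CPM, the counts-per-million of a library after TMM scaling, edgeR's correction for library composition. Itgam was also low, at 0.193 to 1.82 CPM, and Cd68 stood at 3.25 to 7.03 CPM, while the others were higher in every library. Other cell states also differed between libraries. The summed level of 7 cycling-cell markers was 1345 and 360.4 CPM in LPS+HACA libraries, 1816 and 1020 in LPS libraries and 677 and 169 in control libraries. Most of this sum was Mki67, at 977 and 314, 1423 and 988, and 497 and 128 CPM in those groups. Tk1 went the other way, at 12.1 and 15.7 CPM in LPS and 23.9 and 27.3 in control. Birc5, at 1.08 and 0.289 CPM in LPS and 5.83 and 0.728 in control, was also lower in LPS within each replicate number, as were Cdk1 and Ccnb1. For these genes the LPS and control libraries overlapped. Mki67, Top2a and Ccna2 were higher in LPS within each replicate number. At an adjusted p under 0.05 in edgeR, 0 of the 7 were higher and 1 lower in LPS against control. The summed level of 6 stromal markers was 49.6, 32.3 and 47.1 CPM in replicate 1 of LPS+HACA, LPS and control, and 1.35, 2.22 and 1.72 in replicate 2. Cd4, among the T and NK cell markers, was at 5.71, 5.02 and 14.8 CPM in replicate 1 of those groups and 33.3, 33.8 and 41.4 in replicate 2. The part of these markers in the results below was not tested.

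The deposited counts of these genes fell almost wholly on transcripts that have exonic bases shared with no other annotated transcript, called single-transcript bases here. Of their 337 transcripts, 125 had no such base, and these held 29 of 312078 counts, or 0.00929%. A gene's count therefore stands for the transcripts that have bases of their own, which need not be the coding ones. The median tested gene had 77.8% of its counts on protein-coding transcripts, but 14 of 38 had under 50%. Mapk9, Mapk7, Map4k2 and Map4k5 had 0% there, and Map4k4 0.207%, Mapk6 0.254%, Map2k3 1.13%, Map4k3 2.14% and Map3k7 3.31%. Map3k4 had 17.5%, Mapkapk3 21.3%, Mapk3 33.3%, Map3k8 39.0% and Map3k12 47.1%. The share was at least 95.1% for Mapkapk2, Map3k1, Map3k5, Map3k6, Map3k20, Tab1, Tab2, Tab3, Map2k1 and Map2k4.

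LPS libraries differed from control libraries in genes of every role, with both directions among the MAP3K and TAB genes. Of the 38 tested genes, 9 rose in LPS libraries relative to control libraries and 6 fell, at an adjusted p under 0.05 in edgeR's quasi-likelihood test with Benjamini-Hochberg adjustment over all 17113 tested genes. Of all tested genes 30.1% passed in this comparison, 15.9% higher and 14.3% lower in LPS. Among the 38 genes the share was 39.5%, and 23 did not pass. By role, higher against lower counts were 1 and 0 of 4 tested MAP4K genes, 4 and 4 of 15 MAP3K genes, 1 and 1 of 3 TAB genes, 2 and 0 of 5 MAP2K genes, 0 and 1 of 8 MAPK genes, and 1 and 0 of 3 MAPKAPK genes. The median log2 fold change was 0.32 over the 38 genes and -0.05 over all tested genes.

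These directions are relative to TMM scaling, which sets each library by its bulk of genes. The TMM factors were 0.812 and 0.676 in LPS libraries and 1.14 to 1.19 in the others. Genes with at least 10 counts numbered 14006 and 13883 in LPS libraries and 15973 to 16642 in the others. Scaling by library totals instead gave a median log2 fold change of -0.69 for all genes and -0.34 for the 38 genes, and 4 of the 38 then passed as higher and 10 as lower. Higher calls were 60% of the calls among the 38 genes and 52.6% among all genes under TMM, and 28.6% and 21.7% under library totals. In bulk RNA, fewer cells of a type and less RNA per cell cannot be told apart.

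**Figure D1:**
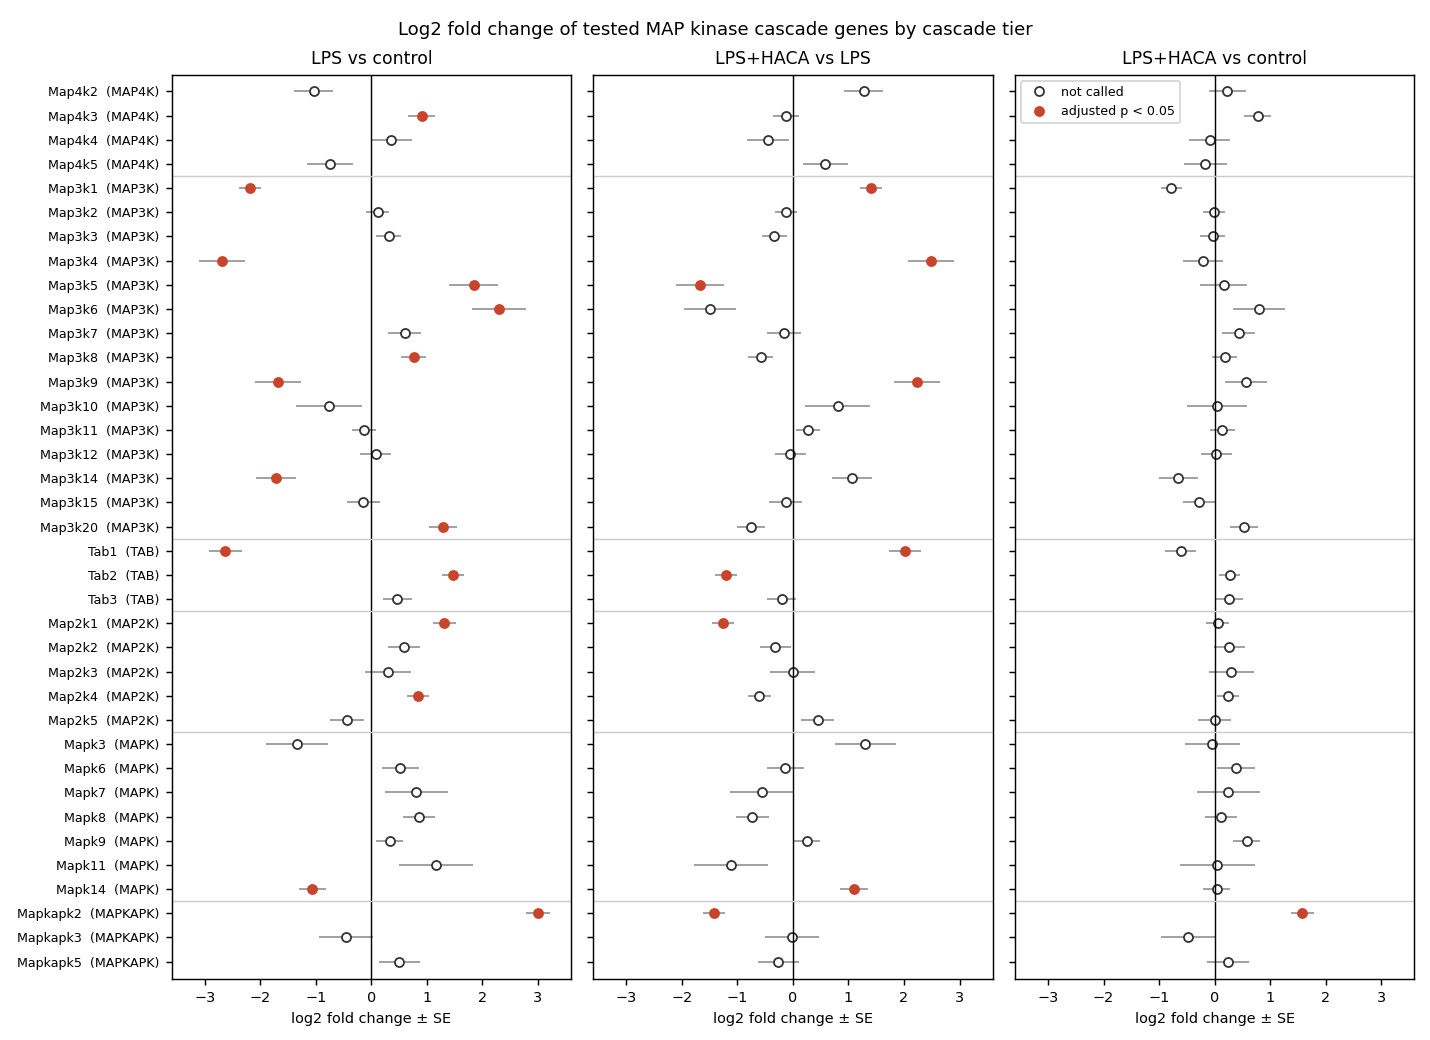
Log2 fold change with its standard error for tested genes of the set, grouped by role down the page, with a panel for LPS against control, a panel for LPS+HACA against LPS and a last panel for LPS+HACA against control. Filled points passed an adjusted p of 0.05. Mapkapk2 is the highest and Map3k4 the lowest point of the LPS against control panel, at 3.01 and -2.69.

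Mapkapk2 had by far the most counts of the 49 genes and is described first. It encodes MK2, the kinase that p38 activates and that stabilises cytokine messenger RNAs by phosphorylating RNA-binding proteins such as tristetraprolin. It lies on the minus strand of GRCm38 at chr1:131053700-131097826, and 84.0% of its exonic bases were single-transcript bases. Mapkapk2 stood at 1649 and 1739 CPM in LPS+HACA libraries 1 and 2, 4056 and 5039 CPM in LPS libraries 1 and 2, and 535 and 597 CPM in control libraries 1 and 2. Each group's libraries lay apart from those of both other groups. Its means were 4547 ± 695 CPM in LPS and 566 ± 44.2 CPM in control (SD, n = 2 each), a log2 fold change of 3.01 ± 0.21 (SE) with adjusted p = 0.000159 in edgeR, or 8.03-fold. LPS+HACA averaged 1694 ± 63.2 CPM (SD, n = 2), which gave -1.42 ± 0.20 against LPS (adjusted p = 0.00699, edgeR) and 1.58 ± 0.20 against control (adjusted p = 0.0165, edgeR). Without LPS+HACA replicate 1 the comparison with LPS gave -1.36 and adjusted p = 0.0672, with a range of 2.11e-08 to 0.0672 over 16 alternatives. A single transcript, Mapkapk2-201, held 99.2% of the gene's counts.

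The RefSeq promoter windows of 300 bases, which run along the gene's strand in GRCm38.p6 from 250 bases before the start to 50 after it, are printed for Mapkapk2, the gene with the largest rise, and for Map3k1, the gene with the largest fall in CPM. The Mapkapk2 window is chr1:131097794-131098093 on the minus strand and the Map3k1 window is chr13:111808944-111809243 on the minus strand. Capitals mark the GC box, GGGCGG read on either strand, which occurred once in the Mapkapk2 window and 6 times in the Map3k1 window.
Mapkapk2: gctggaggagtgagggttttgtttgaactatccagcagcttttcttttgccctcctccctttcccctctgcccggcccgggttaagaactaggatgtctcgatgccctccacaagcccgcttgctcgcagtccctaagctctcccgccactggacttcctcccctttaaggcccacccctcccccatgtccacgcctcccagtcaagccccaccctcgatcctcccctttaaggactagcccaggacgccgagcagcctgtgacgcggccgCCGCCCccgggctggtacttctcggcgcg
Map3k1: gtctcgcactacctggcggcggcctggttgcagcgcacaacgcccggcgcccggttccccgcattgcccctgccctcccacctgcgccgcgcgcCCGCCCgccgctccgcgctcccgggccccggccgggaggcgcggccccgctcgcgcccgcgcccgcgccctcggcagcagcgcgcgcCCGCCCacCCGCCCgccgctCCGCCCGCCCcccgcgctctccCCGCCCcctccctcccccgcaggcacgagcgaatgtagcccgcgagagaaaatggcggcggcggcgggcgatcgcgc
The AP-1 motif TGANTCA, the cyclic AMP response element TGACGTCA and the NF-kB consensus were searched on both strands as well. They occurred in 7.81%, 1.79% and 8.46% of all 32851 RefSeq promoter windows of this length. None of the 13 genes that passed in LPS against control and had a window, 8 higher and 5 lower, held any of these 3 motifs there. The GC box was in 35.7% of all windows, and in a window of 28 of the 39 matched genes, 5 of the 8 that rose and 5 of the 5 that fell. Some genes had more than 1 window, and the absence of these letters says nothing about sites elsewhere.

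At the top of the cascade, Map4k3 rose in LPS. It encodes GLK, a kinase linked to JNK activation and nutrient sensing, at chr17:80580512-80728485. Its levels were 25.5 and 29.1 CPM in LPS+HACA libraries, 28.2 and 31.6 CPM in LPS libraries and 14.3 and 17.7 CPM in control libraries. Both treated groups lay above control and overlapped each other. The log2 fold change was 0.90 ± 0.24 in LPS against control (adjusted p = 0.0253, edgeR), -0.13 ± 0.24 in LPS+HACA against LPS (adjusted p = 0.752, edgeR) and 0.77 ± 0.24 in LPS+HACA against control (adjusted p = 0.226, edgeR). The LPS call was lost without either control library or either LPS+HACA library, under library totals, when only the 2 groups compared were fitted, and when the highest transcript stood for the gene. Its adjusted p ran from 0.00539 to 0.426 over 16 alternatives. Of the Map4k3 counts 2.14% lay on protein-coding transcripts.

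Among MAP3K genes, Map3k1 showed the clearest fall. Its product, MEKK1, is a large kinase and ubiquitin ligase that feeds JNK and ERK, and the gene lies at chr13:111746428-111808993. It had 202 and 201 CPM in LPS+HACA libraries, 77.4 and 75.0 CPM in LPS libraries and 334 and 358 CPM in control libraries. The 3 groups did not overlap, with LPS lowest and LPS+HACA between LPS and control. The log2 fold change was -2.18 ± 0.20 in LPS against control (adjusted p = 0.000338, edgeR) and 1.40 ± 0.19 in LPS+HACA against LPS (adjusted p = 0.00645, edgeR). LPS+HACA against control gave -0.78 ± 0.19 and did not pass in edgeR (adjusted p = 0.12), whereas DESeq2 called it lower.

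Map3k4 and Map3k9 were low-count genes that also fell in LPS. Map3k4 encodes MEKK4, the kinase that GADD45 proteins activate towards p38 and JNK, at chr17:12227621-12318796. It stood at 7.17 and 6.02 CPM in LPS+HACA, 1.48 and 0.867 CPM in LPS and 9.16 and 6.02 CPM in control, so both LPS libraries lay below all 4 others, with 17.5% of its counts on protein-coding transcripts. Map3k4 changed by -2.69 ± 0.42 in LPS against control (adjusted p = 0.0028, edgeR) and by 2.48 ± 0.42 in LPS+HACA against LPS (adjusted p = 0.0112, edgeR). Map3k9 encodes the mixed-lineage kinase MLK1, an activator of JNK signalling, at chr12:81721010-81781175. It stood at 16.2 and 8.32 CPM in LPS+HACA, 2.86 and 2.31 CPM in LPS and 9.72 and 6.88 CPM in control. LPS was again lowest, and LPS+HACA overlapped control. It changed by -1.68 ± 0.41 in LPS against control (adjusted p = 0.0185, edgeR) and by 2.24 ± 0.42 in LPS+HACA against LPS (adjusted p = 0.0153, edgeR). Without LPS+HACA replicate 1 neither LPS+HACA against LPS call passed, with adjusted p = 0.0607 for Map3k4 and 0.0871 for Map3k9 in edgeR, each the highest of 16 alternatives whose lowest were 1.94e-06 and 8.55e-07. The Map3k9 fall in LPS did not pass without control replicate 1 (adjusted p = 0.116), control replicate 2 (0.0538) or LPS replicate 2 (0.0594), against a lowest value of 0.000213 over its alternatives.

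Map3k14 encodes NIK, the kinase that starts the non-canonical NF-kB pathway, at chr11:103219762-103267472. It had 28.3 and 30.8 CPM in LPS+HACA, 8.67 and 19.5 CPM in LPS and 46.4 and 46.4 CPM in control. Both LPS libraries were lowest but differed more than 2-fold from each other. It fell by 1.72 ± 0.37 on the log2 scale in LPS against control (adjusted p = 0.0103, edgeR), and LPS+HACA against LPS gave 1.07 ± 0.36 (adjusted p = 0.0881, edgeR). Without control replicate 1 or 2 the fall did not pass (adjusted p = 0.0554 and 0.0607), the alternatives reaching down to 2.72e-06, and without LPS replicate 2 it was -2.42.

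Of the MAP3K genes that rose in LPS, Map3k5 and Map3k6 showed the largest fold changes and the least even LPS libraries. Map3k5 encodes ASK1, a stress-responsive activator of p38 and JNK that thioredoxin holds inactive, at chr10:19934472-20142753. It stood at 18.6 and 18.5 CPM in LPS+HACA, 31.7 and 87.0 CPM in LPS and 18.3 and 14.8 CPM in control. Map3k6 encodes ASK2, which works in a complex with ASK1, at chr4:133240818-133252929. It stood at 10.8 and 9.53 CPM in LPS+HACA, 15.6 and 41.7 CPM in LPS and 7.34 and 4.30 CPM in control. For both genes LPS replicate 2 was more than 2-fold above LPS replicate 1, and replicate 1 was itself above all 4 other libraries. Map3k5 rose by 1.84 ± 0.44 in LPS against control (adjusted p = 0.0159, edgeR) and fell by 1.68 ± 0.43 in LPS+HACA against LPS (adjusted p = 0.0416, edgeR). Map3k6 rose by 2.30 ± 0.49 in LPS against control (adjusted p = 0.0102, edgeR), and LPS+HACA against LPS gave -1.49 ± 0.47 (adjusted p = 0.0733, edgeR). DESeq2 called Map3k6 lower in LPS+HACA against LPS. Without LPS replicate 2 the LPS against control values dropped to 0.94 for Map3k5 and 1.42 for Map3k6, both still past the threshold.

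The LPS calls of Map3k5 and Map3k6 were also lost in fits that left out a control library. In these the log2 fold change was 1.98 and 1.71 for Map3k5 without control replicate 1 and 2, and 1.97 for Map3k6 without control replicate 2. Map3k5 did not pass without control replicate 1 (adjusted p = 0.0816), without control replicate 2 (0.117) or under library totals (0.0515), and Map3k6 did not pass without control replicate 2 (0.0901). The lowest adjusted p over 16 alternatives was 4.77e-07 for Map3k5 and 4.76e-09 for Map3k6. The Map3k5 call in LPS+HACA against LPS was lost in 8 alternatives, among them leaving out each control library, each LPS+HACA library and LPS replicate 2, and its adjusted p ran from 1.5e-05 to 0.173 with a value of -0.77 without LPS replicate 2.

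Map3k20 and Map3k8 rose less. Map3k20 encodes ZAK, the kinase that senses stalled and collided ribosomes, at chr2:72285637-72442610. It stood at 122 and 93.6 CPM in LPS+HACA, 213 and 153 CPM in LPS and 80.7 and 69.4 CPM in control. The groups did not overlap, with LPS highest. It rose by 1.29 ± 0.25 in LPS against control (adjusted p = 0.00769, edgeR), and LPS+HACA against LPS gave -0.76 ± 0.25 (adjusted p = 0.0832, edgeR). DESeq2 called Map3k20 lower in LPS+HACA against LPS. The rise did not pass without control replicate 1 (adjusted p = 0.0539), control replicate 2 (0.0821) or under library totals (0.117), and reached 9.25e-05 in another alternative.

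Map3k8 encodes TPL2, the MAP3K that carries Toll-like receptor signals to MEK1 and ERK in macrophages and is bound by the NF-kB precursor p105. The gene lies at chr18:4331327-4353015. It stood at 49.6 and 44.0 CPM in LPS+HACA, 71.2 and 69.1 CPM in LPS and 36.3 and 46.2 CPM in control. The LPS libraries were highest, and LPS+HACA overlapped control. It rose by 0.77 ± 0.23 in LPS against control (adjusted p = 0.0357, edgeR), and LPS+HACA against LPS gave -0.58 ± 0.22 (adjusted p = 0.124, edgeR). That rise was lost in 8 of 16 alternatives, including those without either control library or either LPS+HACA library, and its adjusted p ran from 0.0114 to 0.709. Transcripts Map3k8-203 and Map3k8-201 held 46.3% and 39.0% of its counts, 39.0% of them in all lay on protein-coding transcripts, and with the highest transcript alone the log2 fold change was 0.53.

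Map3k7 encodes TAK1, through which interleukin receptor and Toll-like receptor signals reach both NF-kB and MAP kinases. It stood at 5.04 and 5.14 CPM in LPS+HACA, 6.11 and 5.30 CPM in LPS and 3.70 and 3.84 CPM in control. LPS against control gave 0.60 ± 0.30 (adjusted p = 0.173, edgeR). Only 10.5% of its exonic bases were single-transcript bases and 3.31% of its counts lay on protein-coding transcripts. A transcript of Gm8188 matched 70.4% of 1 of its transcripts at 95.9% identity, so its level is uncertain. Map3k3 and Map3k2, which encode MEKK3 and MEKK2, kinases of the ERK5 and other cascades, were the MAP3K genes with the most counts besides Map3k1. Map3k3 stood at 237 and 279 CPM in LPS+HACA, 277 and 375 CPM in LPS and 278 and 248 CPM in control, and Map3k2 between 197 and 242 CPM in all 6 libraries. For both genes the libraries of the groups overlapped, and neither passed in any comparison.

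The TAB genes encode the partners of TAK1, and 2 of the 3 moved in opposite directions. TAB1 activates TAK1 and can also bind p38alpha, while TAB2 and TAB3 tether TAK1 to ubiquitin chains. Tab1, at chr15:80133127-80161707, stood at 30.2 and 29.6 CPM in LPS+HACA, 9.16 and 5.59 CPM in LPS and 45.0 and 46.4 CPM in control. Tab2, at chr10:7905653-7956230, stood at 126 and 137 CPM in LPS+HACA, 290.0 and 314 CPM in LPS and 104 and 113 CPM in control. For both genes each group was apart from the other 2, with LPS at the low end for Tab1 and the high end for Tab2.

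Tab1 fell by 2.63 ± 0.29 on the log2 scale in LPS against control (adjusted p = 0.000752, edgeR) and rose by 2.02 ± 0.29 in LPS+HACA against LPS (adjusted p = 0.00715, edgeR). LPS+HACA against control gave -0.61 ± 0.27 for Tab1 (adjusted p = 0.449, edgeR). Tab2 rose by 1.47 ± 0.20 in LPS against control (adjusted p = 0.00155, edgeR) and fell by 1.20 ± 0.20 in LPS+HACA against LPS (adjusted p = 0.0106, edgeR). LPS+HACA against control gave 0.27 ± 0.19 for Tab2 (adjusted p = 0.71, edgeR). The Tab2 fall did not pass under library totals (adjusted p = 0.0802) or without LPS+HACA replicate 1 (0.099) or 2 (0.0638), and reached 1.24e-06 in another alternative. Tab3 stood at 31.7 and 40.2 CPM in LPS+HACA, 45.4 and 37.4 CPM in LPS and 25.5 and 34.6 CPM in control. It gave 0.46 ± 0.26 in LPS against control (adjusted p = 0.216, edgeR), and its LPS and LPS+HACA libraries overlapped. Per kilobase of single-transcript exon, the Tab2 to Tab3 log2 ratio of levels was 2.52 ± 0.15 in LPS+HACA, 3.51 ± 0.28 in LPS and 2.51 ± 0.23 in control (SD, n = 2 each). Summed deposited FPKM, counts scaled for transcript length and library depth, gave mean ratios of 2.48, 3.37 and 2.56 in those groups.

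Map2k1 and Map2k4 were the MAP2K genes that rose in LPS. Map2k1 encodes MEK1, which phosphorylates the ERK kinases, at chr9:64185770-64253631. It stood at 126 and 118 CPM in LPS+HACA, 265 and 318 CPM in LPS and 121 and 113 CPM in control. LPS was well above both other groups, which overlapped each other. It rose by 1.31 ± 0.20 in LPS against control (adjusted p = 0.00286, edgeR) and fell by 1.26 ± 0.20 in LPS+HACA against LPS (adjusted p = 0.0104, edgeR). LPS+HACA against control gave 0.05 ± 0.20 (adjusted p = 0.975, edgeR). The fall did not pass under library totals (adjusted p = 0.0627) or without LPS+HACA replicate 1 (0.0759) or 2 (0.0754), and reached 1.79e-06 in another alternative.

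Map2k4 encodes MKK4, an activator of JNK and p38, at chr11:65688243-65788297. It stood at 55.7 and 59.0 CPM in LPS+HACA, 89.5 and 85.1 CPM in LPS and 48.2 and 49.1 CPM in control. All 3 groups were apart, with LPS highest. It rose by 0.84 ± 0.20 in LPS against control (adjusted p = 0.0166, edgeR), and LPS+HACA against LPS gave -0.61 ± 0.20 (adjusted p = 0.085, edgeR). DESeq2 called Map2k4 lower in LPS+HACA against LPS. The rise did not pass without control replicate 1 (adjusted p = 0.134), control replicate 2 (0.12) or under library totals (0.49), where it was 0.21, and reached 0.000723 in another alternative.

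**Figure D2:**
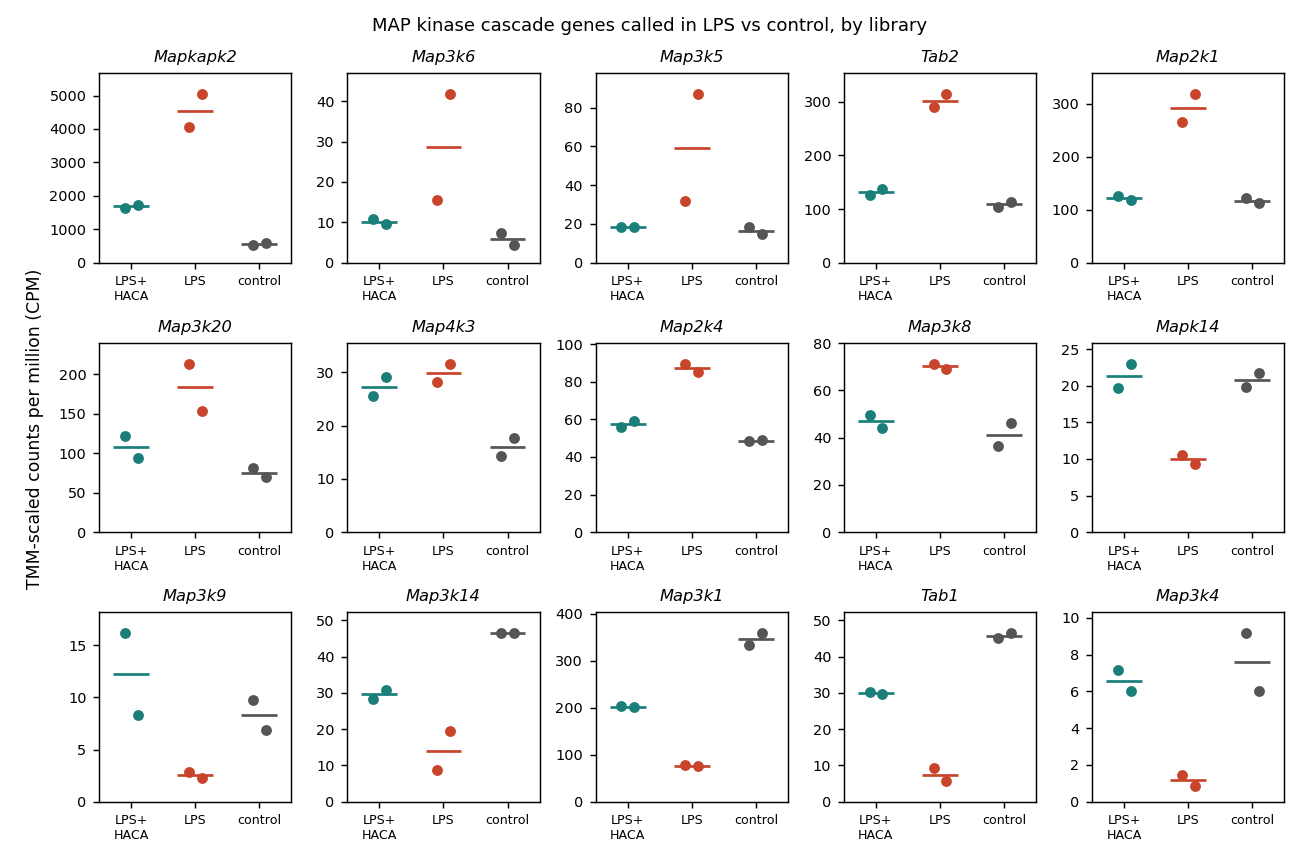
TMM-scaled CPM of each gene that passed in LPS against control or in LPS+HACA against LPS, with 1 point per library and a bar at the mean of 2, for LPS+HACA, LPS and control from left to right. Each axis starts at 0. The spread between the LPS points is wide for Map3k5, at 31.7 and 87.0 CPM, and narrow for Map3k1, at 77.4 and 75.0 CPM.

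The other MAP2K genes did not pass. Map2k2, encoding MEK2, the partner of MEK1, stood at 16.8 and 19.1 CPM in LPS+HACA, 17.6 and 27.1 CPM in LPS and 14.2 and 15.6 CPM in control. It gave 0.59 ± 0.28 in LPS against control (adjusted p = 0.153, edgeR). Per kilobase of single-transcript exon, the Map2k1 to Map2k2 log2 ratio of levels was 3.23 ± 0.20 in LPS+HACA, 4.19 ± 0.25 in LPS and 3.44 ± 0.17 in control (SD, n = 2 each). By summed deposited FPKM the ratios were lower, at 1.98, 3.03 and 2.08 in those groups, so their size depends on the measure. Map2k3, encoding the p38 activator MKK3, stood at 4.13 and 5.07 CPM in LPS+HACA, 2.96 and 6.26 CPM in LPS and 3.70 and 3.77 CPM in control. The LPS libraries enclosed all 4 others, and the log2 fold change in LPS against control was 0.30 ± 0.41 (adjusted p = 0.62, edgeR). Map2k5, which encodes the ERK5 activator MEK5, gave -0.44 ± 0.30 (adjusted p = 0.304, edgeR). Map2k6 and Map2k7 had 9 and 17 counts over all libraries and were not tested. Only 3.11% of the exonic bases of Map2k7 were single-transcript bases, and a transcript of Gm49320 matched 95.5% of a Map2k7 transcript without a mismatch. The Map2k7 level is therefore uncertain.

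At the level of the MAP kinases themselves, Mapk14 was the only gene of 8 tested that passed in any comparison. It encodes p38alpha, the main p38 of macrophages, at chr17:28691329-28748406. It stood at 19.7 and 23.0 CPM in LPS+HACA, 10.5 and 9.34 CPM in LPS and 19.8 and 21.8 CPM in control. Both LPS libraries lay below all others, and LPS+HACA overlapped control. It fell by 1.06 ± 0.25 on the log2 scale in LPS against control (adjusted p = 0.0144, edgeR) and rose by 1.10 ± 0.25 in LPS+HACA against LPS (adjusted p = 0.0266, edgeR). The fall did not pass without control replicate 1 (adjusted p = 0.0734) or 2 (0.11), with a lowest value of 0.00218 over its alternatives. The LPS+HACA call was lost in 6 alternatives, among them leaving out each control library, each LPS+HACA library and LPS replicate 2, and its adjusted p ran from 0.00325 to 0.157. Single-transcript bases were 17.5% of the exonic bases of Mapk14, and 75.1% of its counts lay on protein-coding transcripts.

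Mapk3, encoding ERK1, stood at 1.82 and 4.46 CPM in LPS+HACA, 0.887 and 1.64 CPM in LPS and 3.45 and 2.98 CPM in control. The LPS libraries were lowest and the LPS+HACA libraries differed more than 2-fold from each other, and LPS against control gave -1.34 ± 0.55 (adjusted p = 0.104, edgeR), which did not pass. Single-transcript bases were 20.2% of the exonic bases of Mapk3, and 33.3% of its counts lay on protein-coding transcripts.

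The JNK genes Mapk8 and Mapk9 did not pass either. Mapk8, encoding JNK1, stood at 18.6 and 24.6 CPM in LPS+HACA, 27.9 and 43.8 CPM in LPS and 19.8 and 19.97 CPM in control. LPS was highest, with 0.85 ± 0.29 against control (adjusted p = 0.0591, edgeR), and DESeq2 called this gene higher. Mapk9, encoding JNK2, stood at 15.4 and 15.7 CPM in LPS+HACA, 13.4 and 12.7 CPM in LPS and 10.3 and 10.5 CPM in control. All its counts lay on transcripts that are not protein-coding. Its 3 groups did not overlap, with LPS+HACA highest, and LPS against control gave 0.33 ± 0.24 (adjusted p = 0.336, edgeR). Mapk11, encoding p38beta, had under 2 CPM in every library, at 0.850 and 0.338 in LPS+HACA, 1.08 and 1.54 in LPS and 0.627 and 0.529 in control. LPS against control gave 1.17 ± 0.67 for Mapk11 (adjusted p = 0.219, edgeR). Per kilobase of single-transcript exon, the Mapk14 to Mapk11 log2 ratio of levels was 4.70 ± 1.10 in LPS+HACA, 2.33 ± 0.48 in LPS and 4.56 ± 0.27 in control (SD, n = 2 each). By summed deposited FPKM the ratios were higher, at 6.44, 3.86 and 6.10 in those groups. Mapk6 and Mapk7, encoding ERK3 and ERK5, did not pass, and their libraries overlapped between groups.

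**Figure D3:**
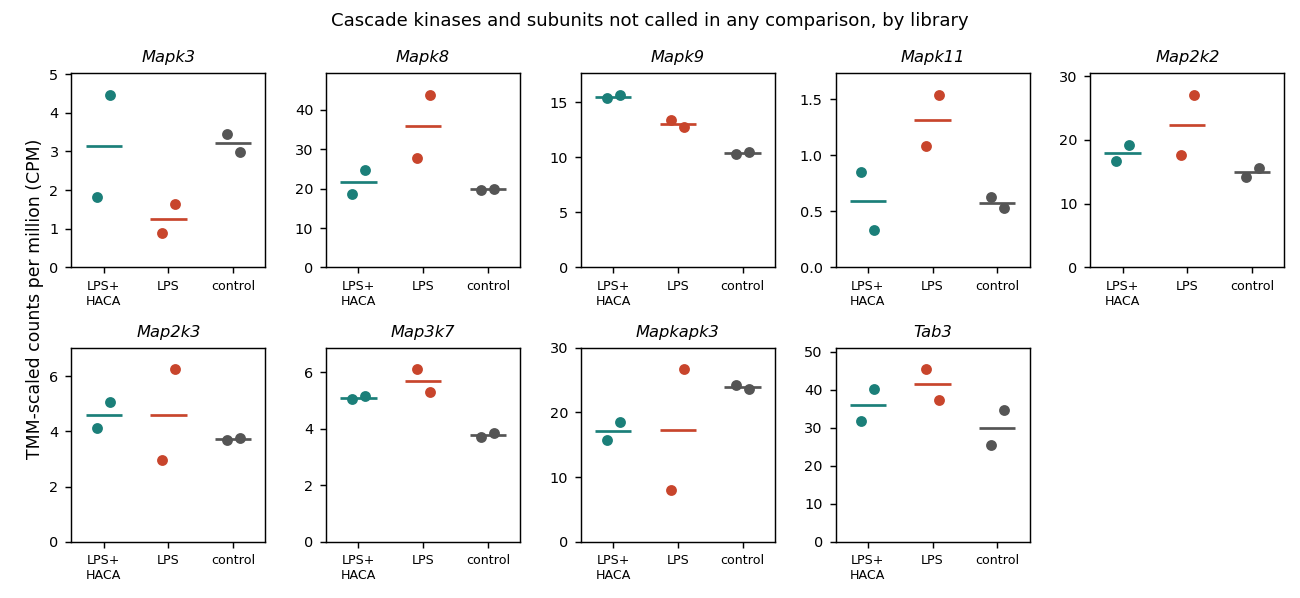
TMM-scaled CPM of well-known cascade genes that passed in neither LPS against control nor LPS+HACA against LPS, with 1 point per library and a bar at the mean of 2, for LPS+HACA, LPS and control from left to right. Mapk9 reaches 15.7 CPM in LPS+HACA and is lowest at 10.3 CPM in control, and the LPS points of Mapkapk3 lie at 7.98 and 26.7 CPM.

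The remaining MAPKAP kinases did not pass. Mapkapk3, encoding MK3, the relative of MK2 that p38 also activates, stood at 15.7 and 18.5 CPM in LPS+HACA, 7.98 and 26.7 CPM in LPS and 24.2 and 23.5 CPM in control. The LPS libraries enclosed all the others, and LPS against control gave -0.46 ± 0.48 (adjusted p = 0.507, edgeR). Per kilobase of single-transcript exon, Mapkapk2 exceeded Mapkapk3 by log2 ratios of 6.83 ± 0.11 in LPS+HACA, 8.47 ± 1.01 in LPS and 4.76 ± 0.14 in control (SD, n = 2 each). By summed deposited FPKM these ratios were lower, at 5.18, 6.79 and 3.05 in those groups. Mapkapk5, encoding MK5, a kinase partner of ERK3, gave 0.50 ± 0.37 (adjusted p = 0.345, edgeR). A Mapkapk5 transcript shares 94.7% of its length with Adam1a and Gm42878 at over 99% identity, so its level is uncertain.

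The comparison of LPS+HACA with LPS asks what the addition of HACA did to LPS-treated macrophages. Of the 38 tested genes, 5 were higher in LPS+HACA (Map3k1, Map3k4, Map3k9, Mapk14 and Tab1) and 4 were lower (Map2k1, Map3k5, Mapkapk2 and Tab2) at an adjusted p under 0.05 in edgeR. Of all tested genes 13.4% passed, 5.74% higher and 7.67% lower in LPS+HACA, against 23.7% of the 38 genes. The median log2 fold change was -0.14 over the 38 genes and 0.06 over all tested genes. Under library totals these medians were 0.52 and 0.70, and 10 genes passed as higher and 1 as lower. Higher calls were then 90.9% of the calls among the 38 genes and 87.0% among all genes, against 55.6% and 42.8% under TMM. This comparison and that of LPS with control share the LPS libraries, so a high or low LPS library moves both.

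The counts of calls in LPS+HACA against LPS fell when 1 LPS+HACA library was left out, which leaves that group with 1. Leaving out LPS+HACA replicate 1 or 2 put the log2 fold change of Map2k1 at -1.27 or -1.22 (-1.26 with all libraries). For Tab2 it was -1.11 or -1.27 (-1.20 with all), and Map3k9 went from 2.24 to 1.71 without replicate 1. Without LPS+HACA replicate 1 edgeR called 2 genes higher and 0 lower, and without LPS+HACA replicate 2 it called 4 higher and 1 lower. All 38 genes had 8 higher and 9 lower at an unadjusted p under 0.05. DESeq2 called 6 higher and 7 lower, and limma-voom 5 higher and 3 lower. Beyond the edgeR calls DESeq2 had Map4k2 higher and Map2k4, Map3k20 and Map3k6 lower, and limma-voom lacked Map3k5. In LPS against control, edgeR called 4 higher and 3 lower without control replicate 1, and 3 higher and 3 lower without control replicate 2.

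LPS+HACA against control left 1 of the 38 genes past the threshold. That gene, Mapkapk2, was higher in LPS+HACA by 1.58 ± 0.20 (adjusted p = 0.0165, edgeR), or 2.99-fold. Of all tested genes 1.15% passed, 0.894% higher and 0.257% lower in LPS+HACA. No gene of the 38 was called lower by edgeR, with 1 at an unadjusted p under 0.05, and DESeq2 called 1 lower (Map3k1) and limma-voom 0. The Mapkapk2 call did not pass without LPS+HACA replicate 1 (adjusted p = 0.0675) or 2 (0.0832) or without control replicate 1 (0.269) or 2 (0.214), while its log2 fold change stayed between 1.49 and 1.67 over 16 alternatives whose lowest adjusted p was 2.9e-10.

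Mapkapk2 alone accounted for most of the difference in the summed level of the 49 genes. It held 50.3% and 51.1% of their counts in LPS+HACA libraries, 67.1% and 69.3% in LPS libraries and 23.8% and 25.7% in control libraries. The sum over all 49 genes was 3281 and 3404 CPM in LPS+HACA, 6042 and 7267 CPM in LPS and 2248 and 2321 CPM in control. Without Mapkapk2 the sum was 1632 and 1665 CPM in LPS+HACA, 1986 and 2228 CPM in LPS and 1714 and 1724 CPM in control. The LPS libraries stayed highest, and LPS+HACA then lay below control.

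**Figure D4:**
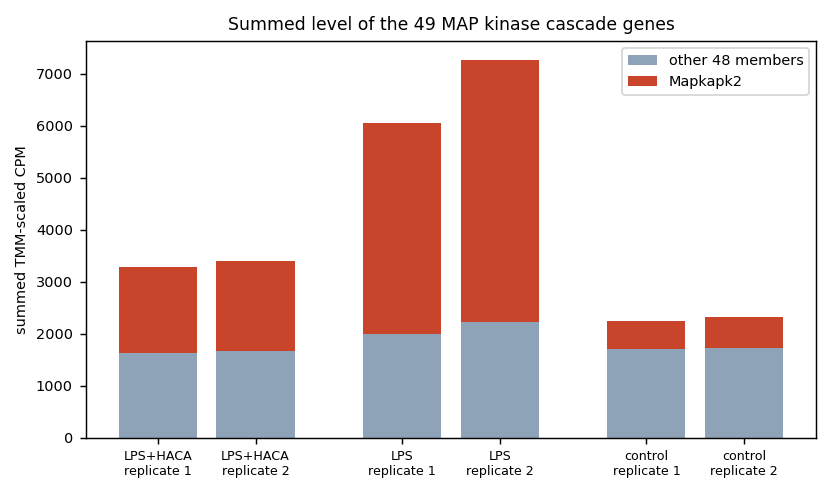
Summed TMM-scaled CPM of the 49 genes in each library, with Mapkapk2 and the other genes drawn as separate parts of each bar, for LPS+HACA, LPS and control from left to right. The bars reach 3281 and 3404 CPM in LPS+HACA, 6042 and 7267 CPM in LPS, and 2248 and 2321 CPM in control.

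Per kilobase of single-transcript exon, Mapkapk2 had 664 ± 24.7 CPM in LPS+HACA, 1781 ± 272 CPM in LPS and 222 ± 17.3 CPM in control (SD, n = 2 each). On the same scale Map3k3 had means of 72.9 CPM in LPS+HACA, 92.1 CPM in LPS and 74.4 CPM in control, and Map2k1 had 48.9, 117 and 47.0 CPM in those groups. Mapk14 had 27.8 CPM in LPS+HACA, 13.0 CPM in LPS and 27.1 CPM in control. Single-transcript bases made up a median of 50.9% of a gene's exonic bases over the 38 genes, with a range of 5.84% to 92.9%.

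**Figure D5:**
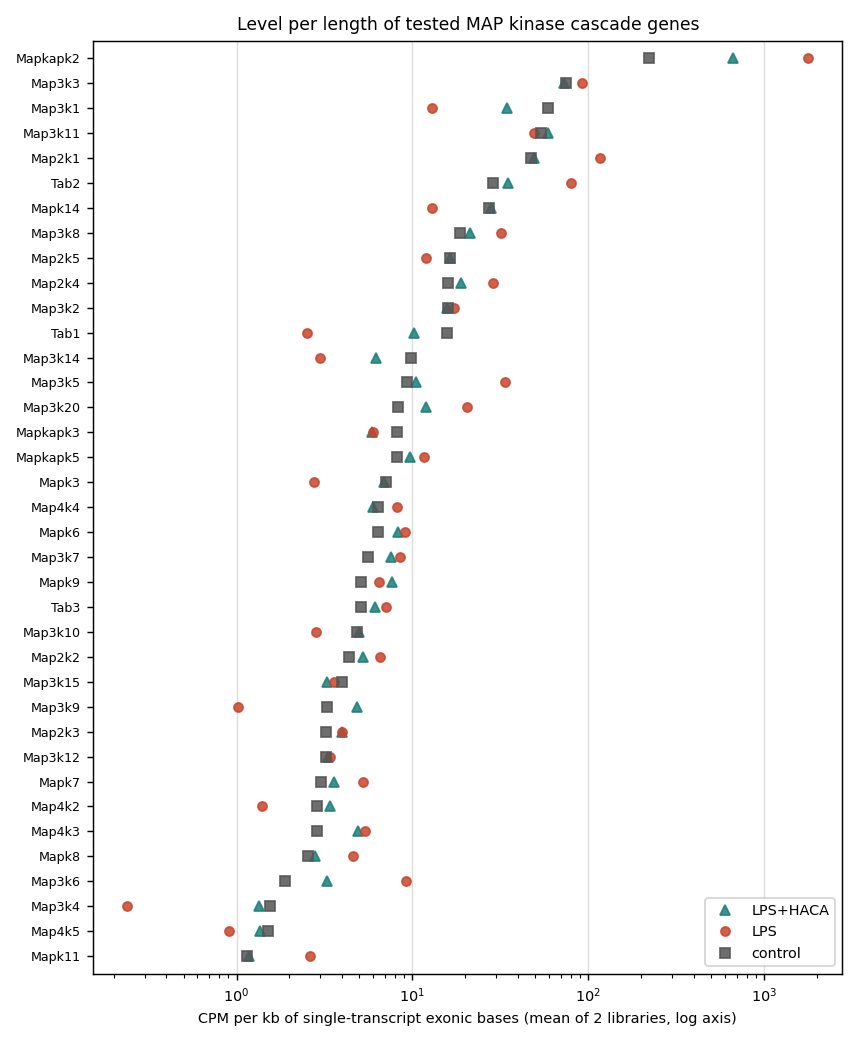
Mean TMM-scaled CPM per kilobase of single-transcript exon for tested genes of the set on a log axis, with a point for each of LPS+HACA, LPS and control. Mapkapk2 stands furthest right in each group, at 664, 1781 and 222, and its LPS point is the highest of all.

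The 11 genes that were not tested had few counts in any library. Over all 6 libraries Map4k1 had 27 counts, Map2k7 17, Map3k19 16, Map2k6 9, Mapk12 5, Map3k21 3, Map3k13 2, and Mapk13 and Mapk15 1 each. Mapk10 and Mapk4 had 0 counts, which allows a level of up to 0.0362 CPM over all libraries, counting error only. Mapk10 encodes the JNK3 known mainly from brain, and Mapk12 and Mapk13 encode p38gamma and p38delta. Of the 27 Map4k1 counts, which come from the gene of the haematopoietic kinase HPK1, 5 were in LPS+HACA libraries, 1 in LPS libraries and 21 in control libraries.

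The LPS libraries were the least even for these genes. With a pseudocount of 0.5 CPM, 7 of the 38 genes were at least 2-fold higher in LPS replicate 2 than in LPS replicate 1 (Map3k5, Map3k6, Map3k14, Map4k4, Mapk7, Mapkapk3 and Mapkapk5), and 0 were higher in replicate 1 by that much. That was 18.4% of the 38 genes, against 15.7% of all tested genes in those libraries. The shares were 2.63% of the 38 genes and 7.72% of all genes in LPS+HACA, and 0% and 5.20% in control.

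The counted shares of transcripts differed by at least 10 points between LPS and control in few of the genes with enough counts. In 19 of the 38 a single transcript held at least 80% of the counts. Among 29 genes with at least 100 counts in every group, 4 had a transcript whose share of the gene's counts differed by at least 10 points between LPS and control. Map3k7-205 held 36.5% in LPS+HACA, 32.5% in LPS and 44.4% in control, and Mapkapk5-212 held 22.9%, 18.5% and 30.3% in those groups. Counts on Map3k7-205 were only 15 and 23 in LPS libraries and 26 and 26 in control libraries. Map3k12-201 held 45.6% in LPS+HACA, 52.0% in LPS and 41.5% in control, and Mapk8-205 held 54.1%, 66.1% and 56.1%. These shares carry no test and, since transcripts without single-transcript bases had almost no counts, they do not cover all transcripts of a gene.

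The signalling genes around the cascade were examined as 6 lists of inputs, scaffolds and targets, whose counts stand beside the 30.1% of all tested genes that passed in LPS against control and the 13.4% in LPS+HACA against LPS. Of 20 tested transcription factor substrates, 10 rose and 3 fell in LPS against control, and 2 rose and 7 fell in LPS+HACA against LPS. The largest changes in LPS were Ets2 at 4.70 ± 0.43, Fos at -2.13 ± 0.26, Jund at 2.10 ± 0.25 and Ets1 at 2.01 ± 0.37 (log2 fold change ± SE). The list's median was 0.92 in LPS against control, beside -0.05 for all genes, and under library totals its counts were 4 higher and 4 lower, and 2 higher and 3 lower in LPS+HACA against LPS. Of 19 tested MAP kinase phosphatases, which switch the kinases off, 8 rose and 1 fell in LPS against control, and 1 rose and 6 fell in LPS+HACA against LPS. Dusp2, Dusp8, Dusp16 and Dusp4 rose in LPS by 5.79 ± 0.51, 5.68 ± 0.38, 4.24 ± 0.39 and 3.12 ± 0.41 on the log2 scale. Their median was 0.80, and library totals gave 4 higher and 4 lower in LPS against control and 2 higher and 3 lower in LPS+HACA against LPS.

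Beside the same 30.1% and 13.4% of all genes, of 18 tested stress inputs to MAP3K enzymes 7 rose and 2 fell in LPS against control, and 0 rose and 6 fell in LPS+HACA against LPS. Gadd45b and Gadd45a, whose products activate MEKK4, rose in LPS by 4.43 ± 0.39 and 3.36 ± 0.45 on the log2 scale, while Txnip gave -2.22 ± 0.66 and Mink1 -1.62 ± 0.49. The list's median was 0.41, and library totals gave 3 higher and 3 lower in LPS against control and 1 higher and 2 lower in LPS+HACA against LPS. Of 18 tested RAS and RAF inputs, 4 rose and 2 fell in LPS against control, with a median of 0.38 and 3 higher and 3 lower under library totals. In LPS+HACA against LPS 1 rose and 3 fell, and library totals gave 2 higher and 0 lower. The 6 calls of 18 in LPS against control are a share near that of all genes. Rras2, a RAS-related GTPase, had 94 counts in LPS libraries and 2 in control libraries, a ratio of 71.1 after scaling with a 95% exact interval of 19.1 to 596 for counting error. Spred2 and Spred1, inhibitors of RAF activation, rose in LPS by 2.37 ± 0.41 and 2.23 ± 0.30, and Rasgrp4 gave -1.19 ± 0.31.

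Of 18 tested scaffolds and adaptors, 4 rose and 2 fell in LPS against control, with a median of -0.11, and 1 rose and 1 fell in LPS+HACA against LPS. Both shares are near the 30.1% and 13.4% of all tested genes. Flna, Iqgap1 and Traf2 rose in LPS by 1.65 ± 0.44, 1.52 ± 0.23 and 1.40 ± 0.41, and Arrb1 gave -1.55 ± 0.35. Library totals gave 1 scaffold gene higher and 9 lower in LPS against control, and 5 higher and 0 lower in LPS+HACA against LPS. Of 7 tested kinases downstream of MAP kinases, 1 rose and 2 fell in LPS against control, with a median of 0.17, and 1 rose and 0 fell in LPS+HACA against LPS. Rps6ka4, which encodes the nuclear kinase MSK2, rose by 2.75 ± 0.60, and Mknk2 and Mknk1, which encode kinases of a translation initiation factor, gave -2.67 ± 0.61 and -1.11 ± 0.24. Library totals gave 1 downstream kinase gene higher and 3 lower in LPS against control, and 2 higher and 0 lower in LPS+HACA against LPS. In LPS+HACA against control, 1 transcription factor substrate, Ets2, 1 phosphatase, Dusp8, and 1 stress input, Gadd45b, rose, and no gene passed in the other lists. The lists were chosen by name and with earlier results of these data known, and no test compares a list with other genes.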

How the data were processed

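The first deposited table held unnormalized counts, 1 value for each transcript and library, all of them whole numbers. The other deposited table held FPKM values for the same transcripts, per the file headers, used here only for ratios between related genes. The submitters' processing notes list STAR (2.5.4b), edgeR (3.28.1) and DESeq2 (1.26.0) along with CASAVA, Trim Galore and limma, without roles or order. The counting program and its use of strand are not given in the sources read. Counts of the set fell on transcripts with annotated bases of their own, and reads of overlapping or antisense genes cannot be told apart. Per the labels' protocols, messenger RNA was pulled down with poly-A beads and sequenced from TruSeq libraries.

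Counts were summed per gene. Of 142647 transcripts, 141524 matched the annotation, and the 1123 others, at most 0.115% of a library's counts, were left out of library sizes and tests. All genes that passed edgeR's filter on low counts were fitted together over the 3 groups with TMM scaling in R 4.3.3 with edgeR 4.0.16, by the quasi-likelihood test with Benjamini-Hochberg adjustment, leaving 3 residual degrees of freedom. With 2 libraries against 2, an exact permutation test of single values cannot go below p = 0.333 and was not used. Alternatives used DESeq2 1.42.0, limma-voom (limma 3.58.1), other scalings, filters and genes, and each library left out in turn. The depth of the libraries, 12529874 to 15379496 counts, limits genes of a few counts. Of the counts matched to genes, 59.8% to 65.1% fell on protein-coding genes and 24.3% to 29.2% on genes annotated as misc_RNA.

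Every gene of the set called in LPS against control or LPS+HACA against LPS with a mean of at least 1 CPM in the higher group is named. Values in every library are given for the 10 largest changes in each and for well-known nodes, and outside the set at most 4 called genes a list with the largest change are named. Map3k2 and Map3k3 were added after their values were seen. A gene of the set is counted in the totals and not reported here by itself. The genes, lists and tests were chosen with earlier results of these data known. Promoter sequences and shares come from RefSeq (GRCm38.p6), where 39 of the 49 genes matched.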

Additional observations from a re-analysis of the deposited data

How the results depend on the processing

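Of 25 called single-gene results, 8 kept direction and call in all 16 alternatives: Map2k1, Map3k4, Mapkapk2 and Tab2 in LPS against control, and Map3k1 and Tab1 in both LPS against control and LPS+HACA against LPS. The other 17 lost the call in at least 1, and no called result reversed. Library totals gave 4 higher and 10 lower in LPS against control (9 and 6 under TMM) and 10 higher and 1 lower in LPS+HACA against LPS (5 and 4 under TMM). Among all tested genes, higher calls were 21.7% and 87.0% of the calls in those comparisons under library totals, and 52.6% and 42.8% under TMM. Over all 38 tested genes, log2 fold changes above 0 numbered 12 under library totals and 24 under TMM in LPS against control, and 30 and 13 in LPS+HACA against LPS. Reversals of single genes were followed in LPS against control for genes called in any comparison and for the well-known nodes reported by name. In the other comparisons they were followed for the called genes alone. Library totals turned Map2k2 (-0.082), Map2k3 (-0.38), Map3k7 (-0.037), Mapk9 (-0.31) and Tab3 (-0.17) negative in LPS against control. They turned Map2k4 (0.034), Map3k8 (0.060) and Map4k3 (0.52) positive in LPS+HACA against LPS. Scaling by DESeq2 size factors moved no count. DESeq2's test gave 7 lower in LPS+HACA against LPS and 1 lower in LPS+HACA against control, where the fit to those 2 groups alone also gave 1 and edgeR over all groups 0. Leaving out each library in turn gave 3 to 13 higher and 3 to 7 lower in LPS against control, 2 to 6 higher and 0 to 6 lower in LPS+HACA against LPS, and 0 to 1 higher and 0 to 1 lower in LPS+HACA against control. It reversed Map2k3 (-0.33 to 0.75, negative without LPS replicate 2) and Mapkapk3 (-1.58 to 0.17, positive without LPS replicate 1) in LPS against control. In LPS+HACA against control it reversed Map3k4 (-0.47 to 0.12, positive without control replicate 1) and Mapk14 (-0.077 to 0.17, negative without control replicate 1 or LPS+HACA replicate 2). A group left with 1 library was assumed to vary like the others. The cause of these changes was not tested.

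The replicate numbers pair nothing in the labels. Same-numbered deviations from the group means correlated at 0.31 between LPS and control, 0.51 between LPS+HACA and control and 0.50 between LPS+HACA and LPS over 17113 genes, with only 2 pairs each. With the replicate number as a block, 10 genes were higher and 8 lower in LPS against control, 7 higher and 8 lower in LPS+HACA against LPS, and 1 higher and 1 lower in LPS+HACA against control. Blocking added Mapk8 as higher and Map4k2 and Mapk3 as lower in LPS against control. It added Map3k14 and Map4k2 as higher and Map2k4, Map3k20, Map3k6 and Mapk8 as lower in LPS+HACA against LPS, and Map3k1 as lower in LPS+HACA against control.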
